A study of Sus scrofa with 20 samples.

Results

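The ileal mucosa of male pigs of low and high residual feed intake (RFI) was compared, using the 10 arrays of the series that carry the gender label male out of 20 arrays in all. RFI is the part of an animal's feed intake that its growth and maintenance do not account for, so a low RFI pig is an efficient one. The low RFI males, labelled with a high feed efficiency, were pigs 402, 420, 412, 425 and 438 of sows 1406, 1410, 1411, 1417 and 1435. The high RFI males, labelled with a low feed efficiency, were their litter mates 403, 419, 413, 428 and 432. Each sow thus gave 1 pair, and every comparison was made within litters. All pigs came from a Large White by Landrace cross, received no other treatment, had free access to feed and were kept in pens by litter. They were slaughtered in the finishing period, in batches that the labels do not give. The labels do not say whether the males were entire or castrated. As each litter had its own pen, the sow and the pen cannot be told apart, and as the pigs were chosen as the extremes of their litter and sex, the contrast is between natural extremes and not between treatments. The other 10 arrays, from the female litter mates of the same sows (5 of low and 5 of high RFI), are given only beside the males.

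The ileum is the last segment of the small intestine, where bile acids and vitamin B12 are taken up and where nutrients that escaped digestion upstream meet a dense microbiota. Its mucosa holds absorptive enterocytes, mucus-forming goblet cells, scattered hormone-secreting enteroendocrine cells, dividing crypt cells, intraepithelial lymphocytes that are largely cytotoxic T cells, and in the pig a long continuous Peyer's patch packed with B cell follicles. Feed efficiency has been studied in this tissue because its renewal, transport and immune activity use a considerable share of the energy an animal takes in.

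Of the 47845 rows of the array, 25092 carried values, and 16361 of these had 1 gene symbol (10567 genes). Values are robust multichip averages on the log2 scale, so a difference of 1 is a doubling, and differences are always low minus high RFI. The median of the male arrays lay between 4.99 and 5.07, and 2 male arrays correlated at 0.948 to 0.972 over all rows. The tissue label fitted the enterocyte markers, since the ileal bile acid binding protein FABP6 lay between 13.02 and 13.39, the glucose carrier SLC5A1 between 12.27 and 12.73 and the lipoprotein APOB between 11.06 and 12.58 in the males. The gender label could not be checked with Y-linked genes: the row named EIF1AY lay between 5.90 and 6.75 in males and between 6.40 and 7.33 in females, and the row named SRY between 1.20 and 1.98 in males and between 1.34 and 2.03 in females.

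Little of the variance among the males followed RFI. In the median row, 48.0% of the variance among the 10 males lay between litters and 6.25% between the RFI groups, where litters take 4 and RFI 1 of the 9 degrees of freedom. The first principal component (20.1% of the variance) lay almost wholly between litters (94.9%), and both males of litter 1406 stood at its low end, at -45.9 for the low and -58.9 for the high RFI pig, while the other 8 males lay between -7.57 and 27.4. On the second component (13.6% of the variance), 22.4% lay between the RFI groups, and the low RFI male was above its high RFI mate in litters 1410, 1411, 1417 and 1435 but below it in litter 1406. The differences of the 5 litters over all rows resembled each other little, with correlations from -0.06 to 0.14 between litters over rows that are not independent of one another.

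**Figure D1:**
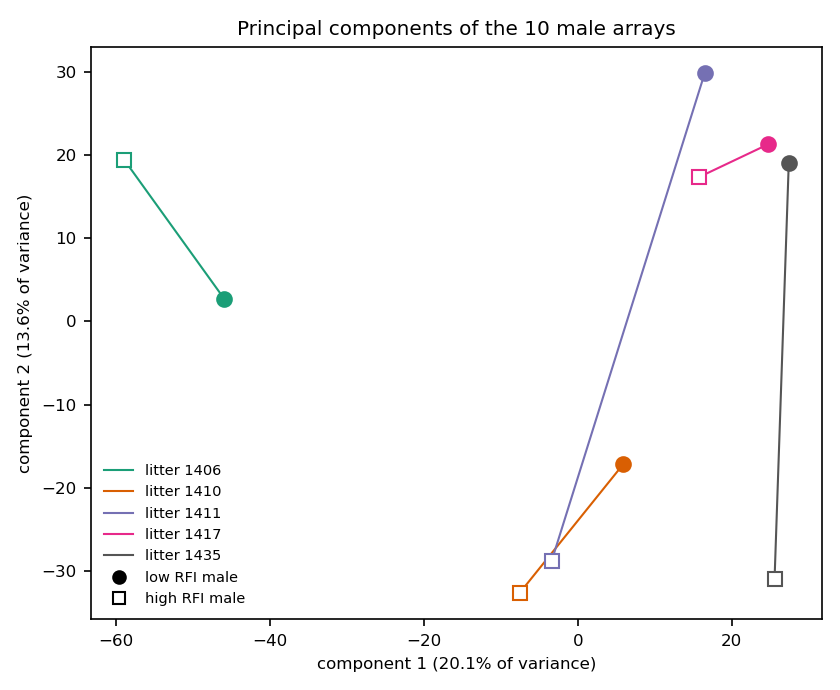
First and second principal component of the 10 male arrays (axes in component units, share of variance in the axis labels), with filled circles for low RFI males, open squares for high RFI males and a line joining the pair of each litter. The pair of litter 1406 lies apart on the first component at -45.9 and -58.9.

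Across the transcriptome, 1482 rows (5.91% of 25092) had an unadjusted p under 0.05 in limma with the sow as a term, the threshold of the study's methods, and these are called rows below. They divided evenly into 740 higher (2.95%) and 742 lower (2.96%) in low RFI males. No row passed after the adjustment of Benjamini and Hochberg (smallest adjusted p = 0.814), and 276 rows had a p under 0.01 and 21 a p under 0.001. Counted by gene, with 1 probeset each, 269 genes (2.55% of 10567) were higher and 313 (2.96%) were lower. The called rows changed by a median of 0.48 on the log2 scale (1.39-fold), and 111 of them by more than 1, while at the median standard error of 0.16 a difference of 0.38 reached the threshold. The sign was the same in 5 of 5 litters in 1925 rows (7.67%), of which 970 were called, and in 210 rows (0.837%) the values of both groups did not overlap, of which 166 were called. With the share of called rows this near to the threshold itself and no adjusted p under 0.05, the genes below are given as measured values of these 10 pigs. The 70 called genes reported here had adjusted p from 0.814 to 0.824, and they are told apart by their size, standard error and rank by p. An exact sign-flip permutation test over 5 litters could not go below a two-sided p of 0.0625 for any single gene.

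PTBP3 led the genes that were higher in low RFI males and encodes an RNA-binding protein that regulates splicing (chromosome 1, 252986716 to 253093059 of Sscrofa11.1). In the order of litters 1406, 1410, 1411, 1417 and 1435, which is kept throughout, its values were 5.49, 6.18, 5.72, 4.32 and 6.45 in low RFI males and 1.41, 2.37, 1.17, 3.99 and 3.46 in high RFI males. The groups did not overlap, but litter 1417 contributed a difference of only 0.33. The log2 difference was 3.15 (standard error 0.58, an 8.89-fold difference, limma adjusted p = 0.814), and it was 3.86 without litter 1417 and 2.80 without litter 1411. The high RFI values of 1.41 and 1.17 lay under 1.76, the 5% quantile of row means. The fold is thus taken partly against very low signal. In females the values reached from 3.17 to 6.66 in low and from 3.63 to 5.82 in high RFI pigs, so that values as low as those of the high RFI males of litters 1406, 1410 and 1411 were not seen in any other pig.

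IGSF5, a junctional adhesion molecule of epithelia (chromosome 13, 203325385 to 203372361), followed with values of 6.22, 7.73, 8.57, 8.39 and 8.42 in low and 4.01, 6.69, 7.38, 6.58 and 3.68 in high RFI males. Its difference was 2.20 (standard error 0.52), with the largest gap in litter 1435. The groups overlapped because the low RFI male of litter 1406 lay below 3 of the high RFI males. KRR1, a factor of small ribosomal subunit assembly (chromosome 5, 38809748 to 38821782), measured 4.15, 3.41, 4.28, 3.56 and 3.42 in low and 3.21, 1.88, 3.27, 2.84 and 1.46 in high RFI males, with no overlap and a difference of 1.23 (standard error 0.20, rank 13 by p).

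Among the smallest p were those of EVI2A and UPRT, both with groups that did not overlap. The litters differed by 0.56 to 1.05 in EVI2A and by 0.59 to 0.69 in UPRT. EVI2A, a membrane protein of blood cells encoded within an intron of NF1 in human (chromosome 12, 43543020 to 43548586), measured 4.15, 3.60, 4.16, 4.17 and 4.40 in low and 3.15, 3.05, 3.37, 3.38 and 3.35 in high RFI males (difference 0.84, standard error 0.12), rank 3 of all rows by p. UPRT, a homologue of the uracil salvage enzyme (chromosome X, 60426955 to 60448174), measured 5.23, 5.06, 4.93, 5.48 and 4.94 in low and 4.58, 4.40, 4.24, 4.80 and 4.35 in high RFI males (difference 0.66, standard error 0.11, rank 9 by p), and 2 of its 3 probesets were called. MRVI1, a partner of the cGMP-dependent protein kinase in smooth muscle, had a difference of 1.17 (rank 10 by p) in 1 of 3 probesets, while its other 2 had the opposite sign.

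Further genes that rose in 5 of 5 litters were STARD4, a carrier of cholesterol between membranes (1.46), DDAH2, which degrades inhibitors of nitric oxide synthase (1.45), KIRREL3, an immunoglobulin-type adhesion molecule (1.44), PPP3CA, the catalytic subunit of the phosphatase calcineurin (1.38), TUB, the tubby protein (1.34), AP3S1, a subunit of the AP-3 vesicle adaptor (1.25), the microRNA gene MIR28 (1.24) and FNBP1, which couples membrane curvature to actin (1.22). Only TUB among these had groups that did not overlap (lowest low RFI value 3.33, highest high RFI value 3.27). AP3S1 had a mean of 1.77, close to the lower limit of 1.76 set for named genes, and its other probeset had the opposite sign. MIR28 differed by 0.01 in litter 1411, 1 of 4 probesets ran the other way, and their mean (0.43) was not called. Without litter 1411 STARD4 was no longer called, MIR28 was lost without litter 1435, and DDAH2 was lost without litter 1406 or without litter 1410.

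**Figure D2:**
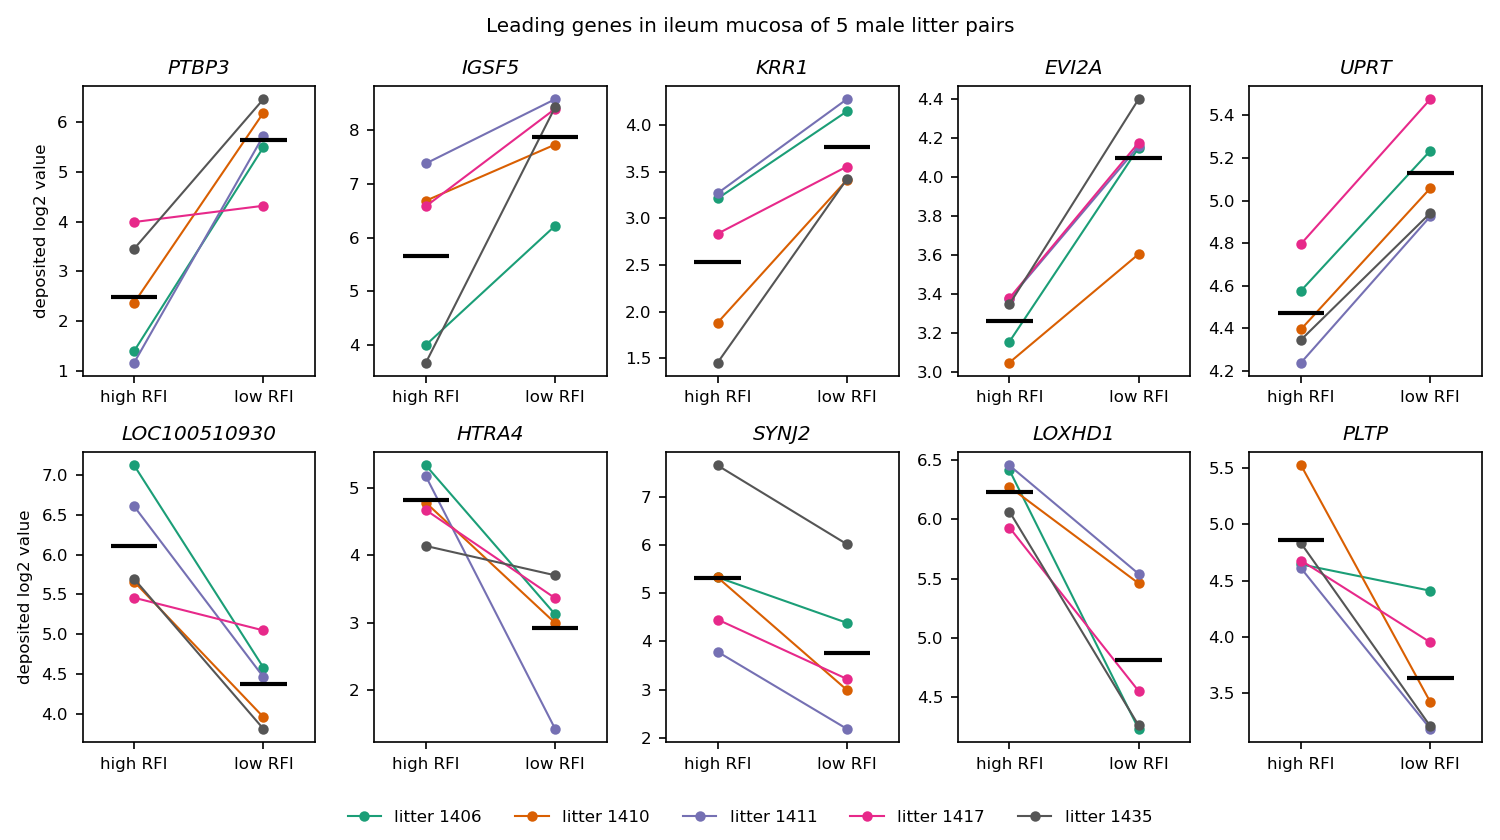
Deposited log2 values (y axis, a separate scale in each panel) of 10 leading genes in high and low RFI males, 1 point per pig, with a line joining the pair of each litter and black bars at the group means. PTBP3 rose by 3.15 on average but by only 0.33 in litter 1417, and SYNJ2 fell in each litter although its litters lie far apart.

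On the other side stood SYNJ2, first among all 25092 rows by p, which encodes an inositol 5-phosphatase that acts on membrane phosphoinositides (chromosome 1, 9014206 to 9109050). Its values were 4.39, 2.99, 2.19, 3.22 and 6.02 in low and 5.33, 5.33, 3.79, 4.46 and 7.66 in high RFI males. The groups overlapped and both males of litter 1435 were high, yet each low RFI male lay below its mate, by 0.95 to 2.34, and the difference was -1.55 (standard error 0.21, limma adjusted p = 0.814). Without the litter in the model SYNJ2 was not called, so this call rests on the pairing.

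Under the rule for named genes, the largest fall was that of HTRA4, a secreted serine protease (chromosome 15, 47610580 to 47625889). It measured 3.12, 2.99, 1.42, 3.36 and 3.70 in low and 5.33, 4.78, 5.17, 4.67 and 4.14 in high RFI males. The difference was -1.90 (standard error 0.43). LOC100510930, an uncharacterised gene (chromosome 14, 50594115 to 50600789), measured 4.58, 3.96, 4.46, 5.05 and 3.81 in low and 7.12, 5.66, 6.60, 5.46 and 5.69 in high RFI males, a difference of -1.73 (standard error 0.29). LOXHD1, known from the stereocilia of inner ear hair cells (chromosome 1, 96080751 to 96287034), measured 4.23, 5.46, 5.54, 4.55 and 4.26 in low and 6.42, 6.27, 6.45, 5.93 and 6.07 in high RFI males, a difference of -1.42 (standard error 0.22, rank 7 of all rows by p). The groups did not overlap in any of these 3 genes, and the smallest gaps came from litter 1435 for HTRA4, litter 1417 for LOC100510930 and litter 1410 for LOXHD1.

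PLTP, the phospholipid transfer protein of plasma lipoproteins, also fell without overlap, from 4.61 to 5.52 in high to 3.18 to 4.41 in low RFI males (difference -1.22). C1QTNF3, a secreted relative of adiponectin (-1.50), and TRPM8, the cold and menthol receptor channel (-1.48), did not overlap either. C1QTNF3 differed by only -0.29 in litter 1417 and -0.25 in litter 1435, and by -1.36 to -2.91 in the other litters. The remaining genes lower in 5 of 5 litters included the immunoglobulin-type membrane protein IGDCC3 (-1.33), the mitochondrial assembly factor ATP5SL (-1.40) and the ankyrin repeat protein ANKRD28 (-1.14). The others were the peptide hormone gene GNRH2 (-1.08) and a row named Mir505 by the platform annotation alone (-1.28). ATP5SL differed by -4.03 in litter 1411 and by -0.37 to -0.99 in the other litters. TRPM8 was lost without litter 1411 or 1435, Mir505 without litter 1411 and ANKRD28 without litter 1406, 1410 or 1435, and the other probeset of TRPM8 and of ANKRD28 had the opposite sign.

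EVI2A and UPRT aside, these are the 12 genes of largest rise and the 12 of largest fall under the rule for named genes. Groups did not overlap in 0.837% of all rows and in 166 of the 1482 called rows. They did not overlap in 9 of the 24, with TRPM8 only just apart (highest low RFI value 4.07, lowest high RFI value 4.10). Choice by p, sign and size favours such a gap in these 24 genes. Many of them vary widely from pig to pig, and the filter on mean and spread of the study's methods would remove 20, namely SYNJ2, PTBP3, IGSF5, HTRA4, LOC100510930, IGDCC3, KIRREL3, FNBP1, PPP3CA, TUB, AP3S1, STARD4, DDAH2, MIR28, C1QTNF3, GNRH2, TRPM8, Mir505, ATP5SL and ANKRD28, while KRR1, MRVI1, LOXHD1 and PLTP pass it. Averaged over all probesets of the gene, the difference was smaller for HTRA4 (mean of probesets -1.25), LOC100510930 (-0.90), TRPM8 (-0.73), AP3S1 (0.61), PPP3CA (0.51) and MRVI1 (0.30), which were still called, and for ANKRD28 (-0.33), which was not.

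Enteroendocrine genes were higher in low RFI males at the level of 2 gut hormones. Of 11 measured genes of the list, 2 rose, none fell and 9 had a positive difference. Their median was 0.20 beside -0.02 over all genes (0.05 for the list in females). Over all 10567 genes 2.55% were higher, 2.96% were lower and 4849 had a positive difference. The list's median was negative in litter 1435 (-0.19), and the fitted median was 0.33 without that litter and 0.12 without litter 1417. NTS, which encodes neurotensin, a hormone of ileal endocrine cells released by fat, measured 8.10, 8.77, 8.94, 9.63 and 9.40 in low and 7.45, 7.42, 7.95, 8.89 and 8.93 in high RFI males. It was higher in 5 of 5 litters, by 0.47 in litter 1435 to 1.35 in litter 1410 (difference 0.84, standard error 0.16, rank 22 of all rows by p). GCG, the proglucagon gene from which L cells make the glucagon-like peptides, measured 7.42, 7.58, 6.73, 7.08 and 7.42 in low and 6.32, 6.80, 5.65, 7.11 and 6.41 in high RFI males (difference 0.79, standard error 0.19). It was higher in 4 of 5 litters, and in litter 1417 both males were alike. Chromogranin CHGB (0.47), somatostatin SST (0.24) and cholecystokinin CCK (0.67) did not pass the test. In bulk mucosa, more cells of a type and more RNA per cell cannot be told apart.

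On the receiving side, GLP2R, the receptor of glucagon-like peptide 2, was lower (difference -0.32), but it lost its call when any litter other than 1417 was left out. The glucagon-like peptide 1 receptor GLP1R (0.16), the leptin receptor LEPR (-0.31) and ghrelin GHRL (-0.29) did not pass. Counting NTS and GCG again, the list of feed intake and gut hormone genes had 2 higher and 1 lower of 12. Over all 10567 genes 2.55% were higher and 2.96% lower.

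The list of brush-border digestion and of sugar and peptide uptake had 2 called genes of 13 measured, both higher in 5 of 5 litters. Of the 13 differences 8 were positive. Among all 10567 genes 2.55% were called higher and 2.96% lower, and 7.67% of all rows had the same sign in 5 of 5 litters. The list as a whole had no settled direction. Its median difference was 0.30, 0.20, -0.28, 0.51 and -0.40 by litter and 0.11 in the fit. The fitted median became -0.06 without litter 1417 (with 3 genes higher and 1 lower) and 0.33 without litter 1435. SLC2A2, the GLUT2 sugar carrier of enterocytes, measured 7.11, 7.96, 7.78, 8.63 and 7.84 in low and 6.81, 6.57, 7.16, 8.10 and 7.42 in high RFI males (difference 0.65, standard error 0.18), and both of its probesets were called. MME, the membrane peptidase neprilysin, measured 8.30, 8.81, 9.02, 9.45 and 9.44 in low and 7.94, 8.22, 8.97, 9.13 and 8.25 in high RFI males (difference 0.50). The pair of litter 1411 differed in MME by only 0.04, while that of litter 1435 differed by 1.20, and MME was lost without litter 1435 or litter 1410. The luminal glucose and peptide carriers SLC5A1 (0.01) and SLC15A1 (0.11) did not pass, and lactase LCT had a difference of 1.09 that did not pass either. Enterocyte markers as a whole had no call among 14 genes, at a median of 0.09 that became -0.02 without litter 1406. No call was made either among the 6 genes of bile acid uptake, at a median of 0.06 that became -0.05 without litter 1417, including FABP6 (0.09) and the ileal bile acid carrier SLC10A2 (0.03).

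T cell and cytotoxic cell genes leaned towards the low RFI males with few calls. Of 15 T cell genes 13 had a positive difference and 2 rose, at a median of 0.15 (0.00 in females). By litter the T cell median was 0.02, -0.005, 0.25, 0.24 and 0.03. The fitted median was 0.25 without litter 1410 and 0.11 without litter 1411. No T cell gene was called without litter 1435, and 1 was higher and 1 lower without litter 1406. Of 23 genes of cytotoxic and natural killer cells 19 had a positive difference, 4 rose and 1 fell. Their median was 0.18 (-0.02 in females). Among all 10567 genes 4849 had a positive difference, 2.55% rose and 2.96% fell. The mean level of the cytotoxic list was 6.39, 6.29, 6.44, 6.55 and 6.42 in low and 6.19, 6.26, 6.25, 6.26 and 6.30 in high RFI males. Each low RFI male thus lay above its mate, by the least in litter 1410. The mean level of the T cell list was 7.03, 6.78, 7.14, 7.01 and 7.03 in low and 6.92, 6.86, 6.80, 6.79 and 6.81 in high RFI males, higher in every litter but 1410.

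CD3G, the gamma chain of the T cell receptor complex, measured 9.33, 9.54, 9.35, 9.76 and 10.27 in low and 8.92, 9.11, 9.24, 9.42 and 9.22 in high RFI males (difference 0.47, standard error 0.16). Both of its probesets were called, and the pair of litter 1435 had the widest gap, without which CD3G was not called. The costimulatory receptor ICOS was higher by 0.34, in 2 of its 3 probesets, but not without litter 1406, 1417 or 1435. The other chains of the complex had smaller differences that did not pass in the probeset of highest mean, with CD3D at 0.21, CD3E at 0.13 and CD247 at 0.30.

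CD8A, the coreceptor of cytotoxic T cells, measured 8.08, 7.69, 8.42, 8.68 and 8.73 in low and 7.68, 7.43, 7.87, 8.39 and 8.33 in high RFI males (difference 0.38, standard error 0.11). Its 3 probesets were all called and each low RFI male lay above its mate, although it was not called without the litter in the model. KLRD1, the CD94 receptor of natural killer cells (0.77), granzyme GZMH (0.48) and the receptor CD244 (0.32) also rose in 5 of 5 litters. Granzymes A and B, effector proteases of cytotoxic granules, did not pass in that probeset either, with GZMA at 0.49 and GZMB at 0.23. Granzyme M (GZMM) went the other way, with 3.08, 2.88, 2.76, 2.31 and 2.36 in low and 3.69, 3.11, 3.34, 3.79 and 3.64 in high RFI males, without overlap (difference -0.84, standard error 0.21). KLRD1 was lost without litter 1410, 1417 or 1435, GZMH without litter 1406 or 1417, and CD244 when any litter other than 1417 was left out.

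**Figure D3:**
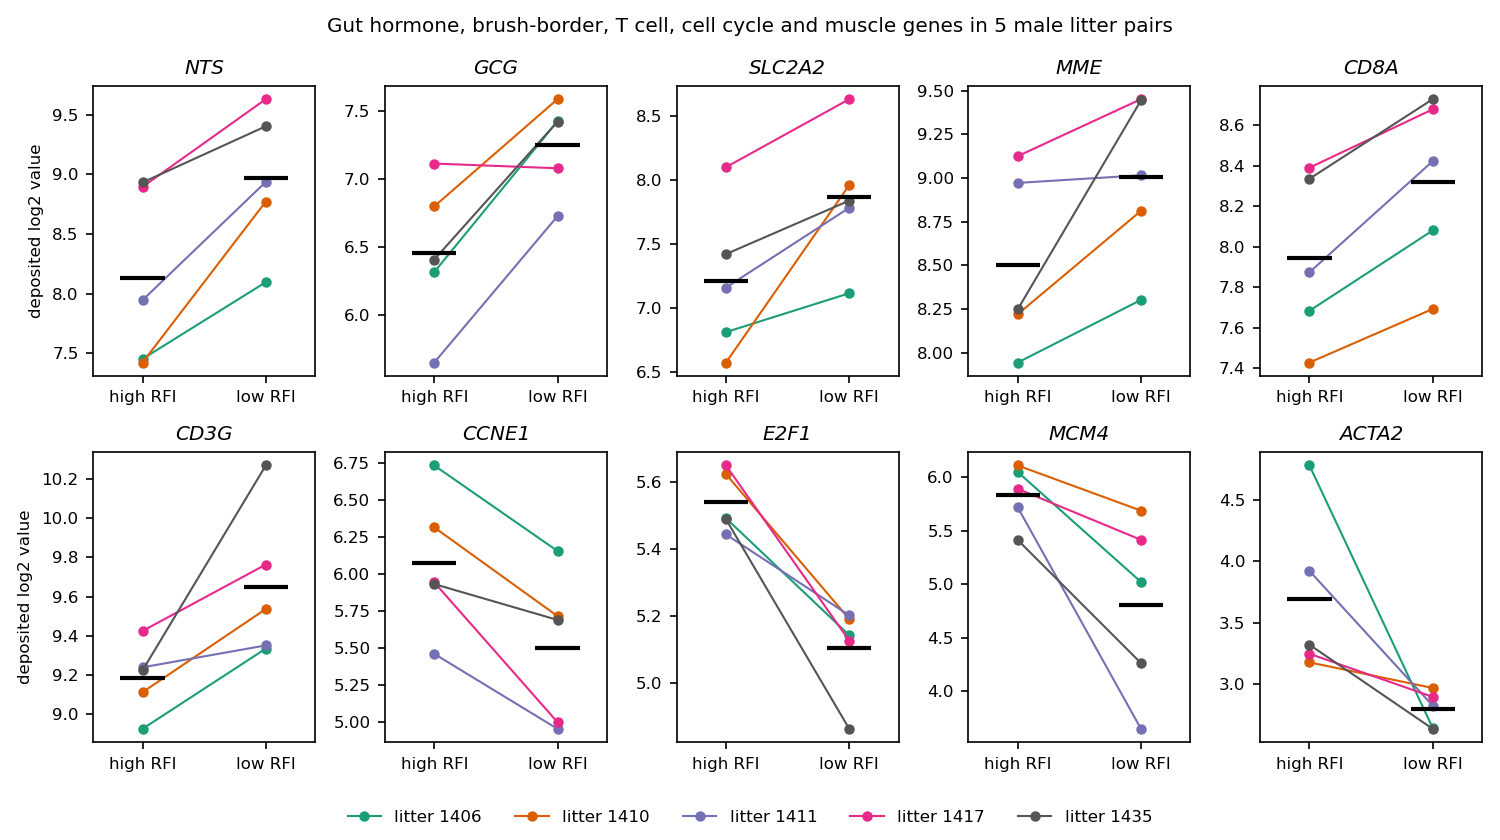
Deposited log2 values (y axis, a separate scale in each panel) of NTS, GCG, SLC2A2, MME, CD8A, CD3G, CCNE1, E2F1, MCM4 and ACTA2 in high and low RFI males, 1 point per pig, with a line joining the pair of each litter and black bars at the group means. The lines of CD8A run nearly in parallel, and the groups of E2F1 and ACTA2 do not overlap.

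B cell genes did not move in 1 direction across litters. Of 11 genes 10 had a negative difference at a median of -0.36 (0.28 in females), but only EBF1, an early B cell transcription factor, was called (-0.47). By litter the list's median difference was -0.85, -0.29, -0.26, -0.88 and 0.65. The male pair of litter 1435 therefore ran against the other 4, with a mean list level of 6.32 in its low and 5.51 in its high RFI male. Without litter 1435 the median was -0.54 and 7 of 11 genes were called, all lower, and with that litter kept and litter 1406, 1411 or 1417 left out none was. How much of a Peyer's patch each scraping held is not recorded, and its part in these values was not tested.

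Interferon-stimulated genes, a set of antiviral genes that are switched on together, separated individual pigs and not the RFI groups. Their median difference was 0.98, 1.07, -0.05, -1.72 and -0.34 by litter and -0.04 in the fit over 24 genes. The mean level reached from 7.22 in the low RFI males of litters 1417 and 1435 to 9.41 in the low RFI male of litter 1410, and from 7.54 to 8.91 in high RFI males. The fit's median was -0.41 without litter 1406 and 0.41 without litter 1417. IFIH1, the MDA5 sensor of viral RNA, measured 4.17, 5.62, 5.62, 4.39 and 5.68 in low and 2.47, 4.58, 4.17, 4.82 and 4.45 in high RFI males (difference 0.997), and the virion-tethering protein BST2 had 0.86 in 1 of 3 probesets. Both were higher in 4 of 5 litters, with litter 1417 as the exception for IFIH1 and litter 1435 for BST2, and BST2 was lost without litter 1406, 1410 or 1417.

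**Figure D4:**
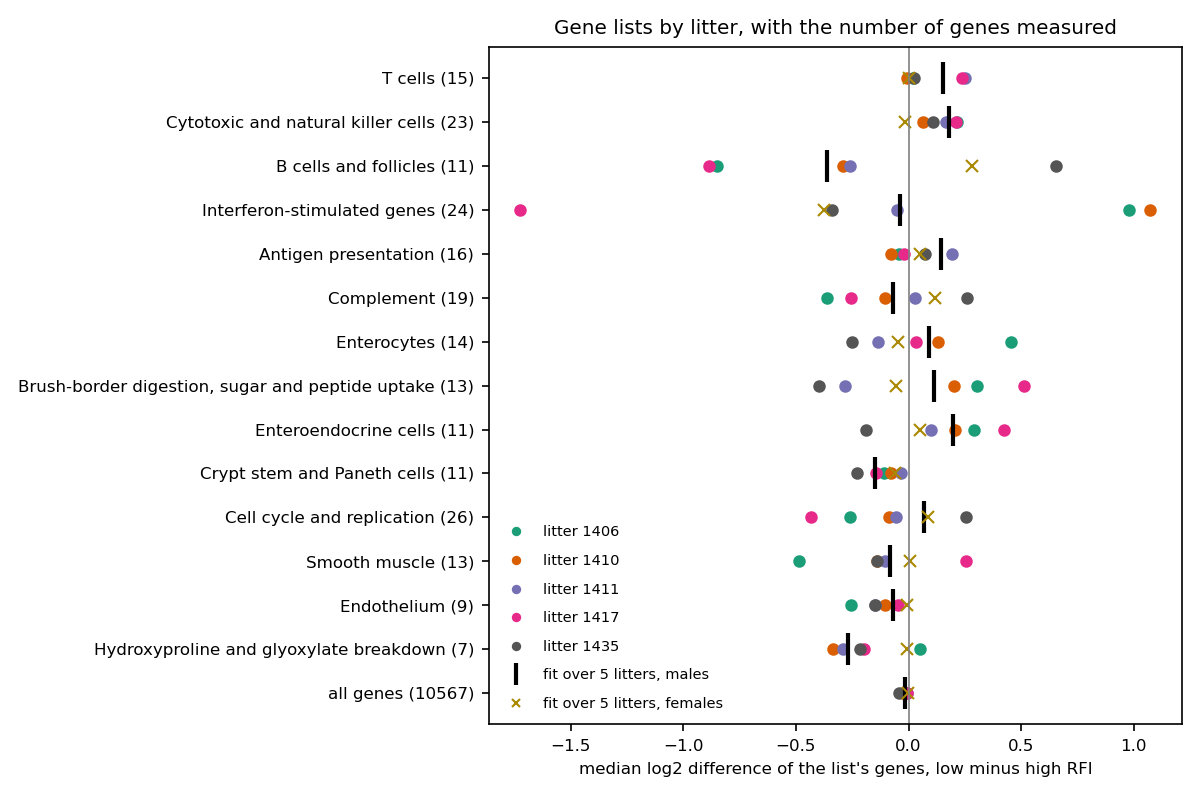
Median log2 difference (x axis, low minus high RFI) of the genes of 14 lists and of all genes, with coloured points for the male pair of each litter, a black bar for the median of the fitted differences over the 5 male pairs and a cross for the same in females. The cytotoxic list is above 0 in each male pair, whereas interferon-stimulated genes reach from -1.72 in litter 1417 to 1.07 in litter 1410.

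Of 26 genes of the cell cycle and DNA replication, 4 fell and none rose, while 15 of the differences were positive. Among all genes 2.96% fell and 2.55% rose. The list's median of 0.07 became -0.07 without litter 1435 and -0.02 without litter 1410. E2F1, the transcription factor that opens the S phase programme, measured 5.14, 5.19, 5.20, 5.13 and 4.86 in low and 5.49, 5.62, 5.44, 5.65 and 5.49 in high RFI males, without overlap (difference -0.43, standard error 0.12). Cyclin E1 (CCNE1), which drives entry into S phase, measured 6.16, 5.72, 4.96, 5.001 and 5.69 in low and 6.73, 6.32, 5.46, 5.94 and 5.93 in high RFI males (difference -0.57, standard error 0.13). MCM4, a subunit of the replicative helicase, measured 5.02, 5.69, 3.65, 5.41 and 4.26 in low and 6.05, 6.11, 5.72, 5.89 and 5.41 in high RFI males, lower in 5 of 5 litters and most in litter 1411 (difference -1.03, standard error 0.25). MCM5, another subunit, is outside the rule for named genes and was named after its values were seen (-0.42, 1 of 3 probesets), and it lost its call without litter 1406, 1410, 1417 or 1435 and in the mean of its probesets. The other subunits MCM2 (0.24), MCM3 (-0.13) and MCM6 (0.11), the proliferation marker PCNA (0.33) and the mitotic kinase CDK1 (0.34) did not pass. CCNE1 was not called without the litter in the model. Genes of crypt stem and Paneth cells had no call among 11, with 10 negative differences at a median of -0.15.

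In the lists of smooth muscle, fibroblasts and matrix, and endothelium, 2 of 13, 1 of 17 and 1 of 9 genes were called, all lower. Among all 10567 genes 2.96% fell and 2.55% rose. ACTA2, the alpha actin of smooth muscle and myofibroblasts (chromosome 14, 100868145 to 100886732), measured 2.64, 2.96, 2.82, 2.89 and 2.63 in low and 4.78, 3.17, 3.92, 3.24 and 3.32 in high RFI males, without overlap, and the high RFI male of litter 1406 was highest (difference -0.90, standard error 0.28). The small heat shock protein CRYAB was lower by 0.48, but only with litters 1406, 1411 and 1417 all in the fit. The other 11 smooth muscle genes did not pass, among them the myosin MYH11 (-0.23), desmin DES (0.03) and transgelin TAGLN (0.17), and the list's median was -0.08 (-0.20 without litter 1417). COL6A3, a chain of collagen VI, measured 4.65, 4.64, 4.04, 3.40 and 2.87 in low and 5.08, 5.10, 5.14, 4.19 and 4.47 in high RFI males (difference -0.87, standard error 0.19), while COL1A1 (0.14), COL1A2 (0.01), COL3A1 (0.05) and COL6A2 (-0.03) did not pass. PECAM1, an adhesion molecule of endothelium, was lower by 0.47 in 1 of 2 probesets, but not without litter 1411 or litter 1417.

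In the complement list 2 of 19 genes fell, none rose and 8 had a positive difference. Its median was -0.07, which became 0.02 without litter 1406. Among all 10567 genes 2.96% fell and 2.55% rose, at a median of -0.02. CFB, factor B of the alternative pathway, measured 8.33, 6.19, 5.16, 4.63 and 4.91 in low and 9.23, 6.57, 6.09, 5.75 and 4.99 in high RFI males (difference -0.68, standard error 0.18). Both males of litter 1406 were far above the rest in CFB, and without the litter in the model it was not called. C3AR1, the receptor of the anaphylatoxin C3a, had -0.84 in 1 of 2 probesets and was lost without litter 1406, 1410 or 1411. C3 (-0.14), C1QA (-0.07) and C1QC (-0.10) did not pass.

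Among all 10567 genes 2.96% fell and 2.55% rose, at a median of -0.02. Of 7 enzymes of hydroxyproline and glyoxylate breakdown, 2 fell and 6 had a negative difference, at a median of -0.27 (-0.01 in females). This list stands for a pathway that the study drew from the same arrays, so its direction is not independent evidence. ALDH4A1, the dehydrogenase that both proline and hydroxyproline breakdown share, measured 4.12, 4.01, 4.18, 3.40 and 3.91 in low and 4.90, 4.34, 4.48, 4.11 and 4.08 in high RFI males (difference -0.46, standard error 0.14). PRODH2, the hydroxyproline dehydrogenase, measured 5.02, 2.40, 4.24, 2.76 and 3.77 in low and 4.77, 4.69, 5.13, 4.04 and 4.51 in high RFI males (difference -0.99, standard error 0.33), was higher in the low RFI male of litter 1406 and was lost without litter 1417. Downstream, HOGA1 (-0.27), GRHPR (-0.24) and HAO1 (-0.59) did not pass.

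Growth factor signalling had 1 higher and 3 lower genes of 27, beside 2.55% higher and 2.96% lower among all genes. IRS1, a docking protein of the insulin receptor, measured 1.48, 1.94, 1.83, 1.94 and 1.65 in low and 2.06, 2.33, 2.07, 2.36 and 2.11 in high RFI males, without overlap but at low signal (difference -0.42, standard error 0.11). PIK3CA, the catalytic subunit of phosphoinositide 3-kinase, was higher by 0.50 in 5 of 5 litters. The translation repressor EIF4EBP1 was lower in 5 of 5 litters by 0.28, in 1 of 2 probesets, and was lost whenever any litter was left out. GLP2R, counted here too, is given above.

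The remaining lists held 1 or 2 calls each. HSD11B2, which inactivates glucocorticoids, was lower in 5 of 5 litters by 0.41, and GCLM, the modifier subunit of the enzyme that starts glutathione synthesis, was higher in 5 of 5 by 0.43. Among immediate early genes FOSB was lower by 0.41 and KLF6 higher by 0.39, each in 5 of 5 litters. The mitochondrial chaperonin HSPD1 was higher by 0.47 and the chondroitin sulphate enzyme CSGALNACT2 by 0.53, whereas the triglyceride synthesis enzyme DGAT2 (-0.56), the lymphoid chemokine CCL21 (-0.31), the interleukin subunit IL12B (-0.32), the dual oxidase maturation factor DUOXA2 (-0.53) and the ribosomal protein RPS3A (-0.999) were lower. Each of these 7 lost its call when 1 of at least 3 litters was left out, and the mean of a gene's probesets did not pass for CSGALNACT2, DGAT2 and RPS3A. Over all 44 lists, 42 of 711 genes were called (5.91%), 18 higher and 24 lower. Among all 10567 genes, counted in the same way, 2.55% were higher and 2.96% lower. In 19 lists no gene was called, among them plasma cells, macrophages, goblet cells, Toll-like receptor signalling, antigen presentation (13 of 16 genes positive, median 0.15), oxidative phosphorylation, amino acid transport and epithelial junctions.

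Females of the same litters did not show the male differences as a whole. In the females alone 940 rows (3.75% of 25092) were called. Of the 1482 rows called in males, 43 were also called in females in the same direction and 40 in the opposite direction, and 39.3% had the same sign in females, beside 47.3% of all rows. The difference of the RFI contrast between the sexes had p under 0.05 in 1471 rows (5.86%) and no adjusted p under 0.05 (smallest 0.822). It did so in 611 of the rows called in males (41.2%), but these rows were chosen by the male difference, which is 1 side of this test.

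Of the 24 genes with the largest differences in males, 15 had the opposite sign in females. This was near the share over all rows called in males, of which 39.3% had the same sign in females. LOC100510930 had -1.73 in males and 0.52 in females (difference between the sexes -2.25, standard error 0.43, rank 1 of all rows by the p of this test), and its female values were 5.31 to 6.15 in low and 4.45 to 5.75 in high RFI pigs. PTBP3 had 3.15 and -0.30 (3.45 between the sexes), IGSF5 2.20 and -0.53 (2.73) and HTRA4 -1.90 and 1.17 (-3.07). NHEJ1, a factor of DNA end joining, was lower by 0.76 in low RFI males and higher by 1.01 in low RFI females, and the test of the difference gave -1.77 (rank 2), though its other probeset had the opposite sign in males. The calcium channel-like protein CACHD1 (-0.68 and 0.28), the orphan receptor GPR176 (-0.55 and 0.35) and AP3S1 (1.25 and -0.65) had ranks 4, 12 and 7 in this test. They were the other reported genes of smallest p, not those of all rows. All were called in males, which is 1 side of the test. GCG differed between the sexes by 1.098 and SLC2A2 by 0.90, both past the threshold, while for NTS (0.84 and 0.02) the difference of 0.82 did not pass.

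SYNJ2 had a difference of -1.55 in males and -1.27 in females, and STARD4 had 1.46 and 0.996, with no call for the difference between the sexes in either gene. MCM4 (-1.03 and -0.54) and CRYAB (-0.48 and -0.77) were the reported genes called in the same direction in both sexes. NHEJ1, GPR176 and ANKRD28 were called in both sexes in opposite directions, but the male call of GPR176 was lost without litter 1406, 1410 or 1411, that of ANKRD28 as given above, and that of NHEJ1 without the litter in the model and in the mean of its probesets (-0.26).

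**Figure D5:**
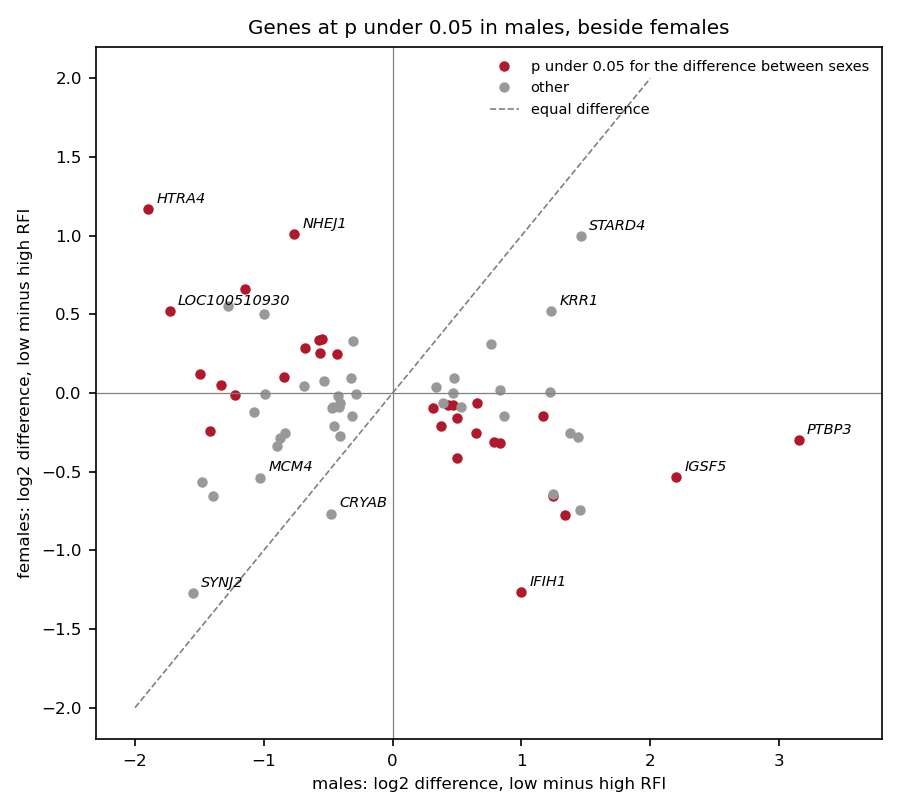
Log2 difference, low minus high RFI, in males (x axis) and in females (y axis) of the 70 reported genes called in males, with red points where the difference between the sexes had p under 0.05 (30 genes) and the dashed line where both differences are equal. PTBP3, IGSF5, HTRA4 and LOC100510930 lie far from the line, and SYNJ2 lies near it.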

How the data were processed

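Per the labels and the study's methods, RNA of ileal mucosa was hybridised to 1 Affymetrix snowball array per pig. In the methods, the authors mapped the probes anew to Sscrofa11.1 in a layout of their own, screened array quality and ran the affy package's RMA (background correction, quantile normalization, median polish). What they deposited is therefore log2 expression. The submitters' processing notes name GCOS 1.1.1. Symbols came from the platform annotation of the array, updated for 331 rows through RefSeq synonyms, and coordinates from RefSeq on Sscrofa11.1. The labels and the methods name different RNA and labelling kits. The methods' slaughter batch is not in the labels and was left out. Precision is limited by the number of arrays.

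The 10 male arrays were fitted with limma 3.58.1 in R 4.3.3 (lmFit and eBayes), with the sow and the RFI group, on 4 residual and 3.03 prior degrees of freedom, without a filter on low values. The difference between the sexes was the interaction in a fit of all 20 arrays with the sow. The threshold was an unadjusted p under 0.05, beside the Benjamini-Hochberg adjusted p. Litter mates are paired by the sow label. Their deviations from the group means correlated at 0.005 to 0.25 (over 0.1 in 2 of 5 litters). The fits were tested on simulated data, and figures were drawn with matplotlib 3.10.9.

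Named genes were the 12 highest and 12 lowest differences among rows at p under 0.05 with 1 symbol. These rows had the same sign in 5 of 5 litters and a mean not under the 5% quantile (1.76). Also named were the 5 smallest p, up to 3 called members and the highest member of each list. All T cell and cytotoxic genes and Y-linked genes were added. A further 6 genes, all called in males, were named for a small p between the sexes, at ranks 1 to 12 of all rows. Lists were counted with 1 probeset per gene, the one of highest mean, and not tested as sets. The arrays, lists and rules were chosen with earlier results of these data known. Alternatives were the fit without the litter, the sow as a random block, all 20 arrays in 1 fit, the methods' filter on mean and SD, a filter on the mean alone, eBayes with trend or robust, array weights, quantile normalization, centring on the median, the mean of a gene's probesets, a threshold of 0.01, the litter-by-sex pair as block and leaving out each litter.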

Additional observations from a re-analysis of the deposited data

Results flagged for a closer look

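Among 150 groups of 5 males looked at (75 genes, low and high RFI), 5 held a pig far from the other 4, where chance alone gives about 1 in 20 groups. PLTP was 5.52 in the high RFI male of litter 1410 (next highest 4.83), KIRREL3 was 0.90 in the high RFI male of litter 1417 (next lowest 3.003) and E2F1 was 4.86 in the low RFI male of litter 1435 (next lowest 5.13). IFIH1 was 2.47 in the high RFI male of litter 1406 (next lowest 4.17), and STARD4 was 3.65 in the low RFI male of the same litter (next lowest 5.32).

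For 32 of the 75 genes the RFI difference of males and that of females differed with an unadjusted limma p under 0.05 in the test of the difference itself, none after adjustment (smallest adjusted p = 0.822). On the log2 scale, male minus female, the genes with a positive value were PTBP3 at 3.45, IGSF5 at 2.73, IFIH1 at 2.26, TUB at 2.12, AP3S1 at 1.90, MRVI1 at 1.31, EVI2A at 1.15, GCG at 1.098, MME at 0.92, SLC2A2 at 0.90, UPRT at 0.72, PIK3CA at 0.66, CD8A at 0.59, CD3G at 0.54, GCLM at 0.51, CD2 at 0.44, CD244 at 0.41 and CD3D at 0.32. Those with a negative value were HTRA4 at -3.07, LOC100510930 at -2.25, ANKRD28 at -1.81, NHEJ1 at -1.77, C1QTNF3 at -1.62, IGDCC3 at -1.385, PLTP at -1.21, LOXHD1 at -1.18, CACHD1 at -0.97, C3AR1 at -0.945, CCNE1 at -0.91, GPR176 at -0.89, DGAT2 at -0.82 and E2F1 at -0.68. Most of these genes were reported for their difference in males, so the test is not independent of that choice.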

How the results depend on the processing

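No adjusted p passed 0.05 under any setting. At an unadjusted p under 0.01, 276 rows were called, 144 higher and 132 lower. Leaving out each litter gave 1202 to 1761 rows at p under 0.05. With the litter not in the model (no replicate block) it was 1233, and 1493 rows differed between the sexes with the litter-by-sex pair as replicate block. None of the 70 called genes changed the sign of its difference, and other genes were not followed singly. The balance of higher and lower rows moved from 740 and 742 to 809 and 671 with renewed quantile normalization. It was 609 and 732 without litter 1435. Medians of several lists changed sign when 1 litter was left out, among them interferon-stimulated, brush-border, enterocyte, cell cycle and complement genes. The mean of a gene's probesets lost 11 genes, among them EBF1, GZMH, C3AR1 and BST2. Of the 70 called genes, 35 were called under every setting that kept their row, other than leaving out a litter, and 30 also with each litter left out. The block carried 22 calls, among them SYNJ2, CCNE1, SLC2A2 and CD8A, and the cause was not tested. The methods' filter left 22136 rows and took out 26 of the 70 genes. With 5 pairs and no slaughter batch, small differences could not be resolved.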
